A study of Mus musculus with 29 samples.

Results

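Nephron progenitor cells (NPCs) propagated for 20 or 80 passages were compared by the age of the kidney that each line came from. The late-origin lines were derived at embryonic day E16.5 and at postnatal day 1 (P1), and the early-origin lines at embryonic days E11.5 and E13.5. All libraries with these labels were taken, which gave 4 late-origin and 4 early-origin libraries, 8 of the 29 libraries in the series. Each age is represented by 1 line, with a single library at passage 20 (P20) and another at passage 80 (P80). All lines carry the Six2-GCE allele on a mixed C57BL/6 and 129 background and were grown as 3D aggregates in the medium named NPSR. The 8 libraries of freshly isolated (primary) NPCs of the same 4 ages, 2 at each age and of the same genotype and strain, served as the uncultured comparison. Poly(A) RNA was sequenced, and levels are given in RPKM, read counts scaled by transcript length and by the mapped reads of the library. Differences are given as late minus early on the log2(RPKM + 1) scale, with the standard error (SE) of the fit. This scale understates the change of genes with a low RPKM.

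NPCs form the cap mesenchyme around the tips of the branching ureteric bud. They either renew, a state maintained by the transcription factor Six2 together with FGF and BMP7 signals, or respond to Wnt signals, switch on Wnt4 and turn into the epithelium of the nephron. The population is exhausted shortly after birth in the mouse, and progenitors of older kidneys differ from younger ones in their transcripts before they are lost. Pax2 is a transcription factor needed in both the progenitors and the early nephron. Cdkn2a encodes the cell cycle inhibitors p16INK4a and p19ARF, which accumulate in many cultured cells. Saa3 encodes an acute phase protein of the serum amyloid A family.

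The NPC label held for Six2, which lay between 233 and 329 RPKM in all 8 line libraries, but not evenly for Pax2. In primary NPCs Pax2 lay between 68.6 and 161 RPKM. In the lines it reached 59.7 to 73.3 RPKM in 3 of the 4 late-origin libraries and 0.24 to 15.1 RPKM in the others. Among markers of other cells, Ptprc, Csf1r and Emr1 of macrophages, Cdh5, Pecam1 and Kdr of endothelium and Myod1, Myf5 and Pax7 of muscle precursors were listed at or near 0 in the lines. Over the whole lists the summed level in the lines was 13.9 to 36.4 RPKM for 11 macrophage genes and 29.4 to 42.9 RPKM for 10 endothelial genes, most of it from Cd68 and Egfl7. The 13 skeletal muscle genes summed to 386 and 532 RPKM in the early and 685 and 593 RPKM in the late lines at P20, nearly all from Des, which encodes the intermediate filament desmin. The part of such cells in the differences was not tested. In the primary libraries the macrophage genes summed to 38.0 to 80.4 RPKM at the early and 55.0 to 1540 RPKM at the late ages. The 16 tubule genes summed to 10.6 to 23.4 RPKM and 190 to 7481 RPKM there. In the lines at P20 the tubule genes summed to 137 and 89.4 RPKM for E11.5 and E13.5, and 120 and 131 RPKM for E16.5 and P1. At P80 they summed to 339 and 292 RPKM in the early lines, 138 RPKM in the E16.5 line and 315 RPKM in the P1 line. Their part in the differences between lines was not tested. The part of other cells in the late-early differences of primary cells was not tested either.

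The P1 line at P80 did not resemble the other late-origin libraries. Across the 12129 genes tested, its Spearman correlation with the 4 early-origin libraries was 0.96 to 0.974, and with the other 3 late-origin libraries 0.917 to 0.932. The library nearest to it was the E11.5 line at P80, whereas the P1 line at P20 was nearest to the E16.5 line at P20 with a correlation of 0.968. On the first principal component, which held 41.5% of the variance, the E16.5 line stood at 49.8 at P20 and 33.1 at P80 and the P1 line at 39.6 at P20. The P1 line at P80 stood at -29.9, within the range of -33.4 to -4.3 spanned by the early-origin libraries. Genes of the Y chromosome also differed within single lines. Eif2s3y, a Y-linked translation factor gene, was at 13.9 RPKM in the E13.5 line at P20 and at 0.03 RPKM at P80. It was at 0.52 RPKM in the P1 line at P20 and 0.04 RPKM at P80, and between 7.85 and 36.1 RPKM in the E11.5 and E16.5 lines. Xist, the RNA that silences an X chromosome in female cells, was between 17.2 and 27.4 RPKM in 6 libraries, at 63.7 RPKM in the E13.5 line at P80 and at 54.7 RPKM in the P1 line at P80. What lies behind these differences was not tested, and whether the P80 libraries come from the lines named in their labels was not tested either. Averages over both passages take those labels as given. The tests over both passages were therefore repeated without the P1 line at P80, and the genes are described mainly at P20.

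**Figure D1:**
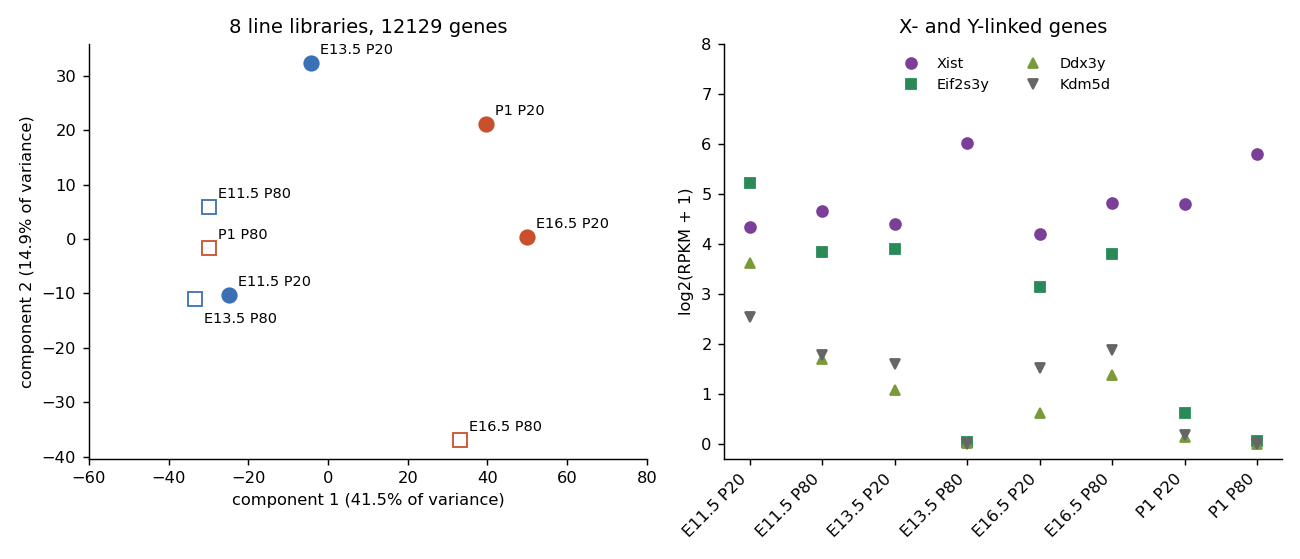
Left, the 8 line libraries on the first 2 principal components of log2(RPKM + 1), with circles for P20, squares for P80, blue for early and red for late origin. Right, the level of 4 sex-linked genes in each library on the log2(RPKM + 1) scale. The P1 line at P80 lies among the early-origin libraries on the first component, and the Y-linked genes are near 0 in it and in the E13.5 line at P80.

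The line was the unit of the test over both passages, so the mean of P20 and P80 was compared between 2 late and 2 early lines. The limma test of these averages called 12 genes at an adjusted p under 0.05, 2 higher (0.0165% of the genes tested) and 10 lower (0.0824%), all of them microRNA or small nucleolar RNA symbols, which a poly(A) library measures poorly. At P20 alone, 67 genes were called, 50 higher (0.412%) and 17 lower (0.140%). Of these, 49 higher and 7 lower genes were not small RNA symbols. At P80 alone the calls numbered 4 higher (0.0330%) and 9 lower (0.0742%), all small RNA symbols. The change of the late-early difference from P20 to P80, tested by limma on the same 4 lines, gave 0 calls, with 489 genes at an unadjusted p under 0.05 and a smallest adjusted p of 0.857. In an alternative chosen after seeing the data, the P1 line at P80 was left out and the P1 line represented by its P20 value. The averages then gave 1174 calls among the 12129 genes tested, 694 higher and 480 lower. Of the 48 genes named by rule, 0 were called with that library and 44 without it. Most of the 48 were chosen for separation or calls in these same libraries. Some reached an RPKM of 1 in 2 or more line libraries only through the group where they are high. The rise from 0 to 44 is therefore no support for a difference. When the small RNA symbols were left out of the P20 test, also after seeing the data, 374 of 11950 genes were called, 265 higher (2.22%) and 109 lower (0.912%). Since each age has 1 line, the age of origin and the history of the single line cannot be told apart.

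Cdkn2a was higher in late-origin libraries without exception. It was at 4.54 and 4.55 RPKM in the E11.5 line at P20 and P80, and at 7.98 and 10.99 RPKM in the E13.5 line. In the E16.5 line it was at 61.4 and 46.9 RPKM, and in the P1 line at 60.8 and 21.9 RPKM. All 4 late-origin libraries lay above all 4 early-origin libraries, and the P1 line at P80 was the lowest of the late ones. The difference was 3.14 ± 0.26 (SE) at P20 (limma, adjusted p = 0.0403) and 2.58 ± 0.36 over both passages (adjusted p = 0.346). Without the P1 line at P80 it was 2.94 ± 0.31 (limma, adjusted p = 0.0152). In primary NPCs Cdkn2a was listed at 0 to 0.25 RPKM, with a late-early difference of 0.11 ± 0.10. The difference in the lines exceeded that in primary cells by 2.47 ± 0.37 (limma, adjusted p = 0.0216). This test shares its spread between the line averages and the primary libraries, where Cdkn2a was near 0. Sharing the spread moved the line difference over both passages alone from an adjusted p of 0.346 to 0.0216 (limma). The later comparisons of lines with primary cells share the spread in the same way. The gene lies at chr4:88920377-88940557 on the minus strand of mm9, and 1 value per symbol does not separate its p16INK4a and p19ARF transcripts. Of the 14 tested genes of the list of Cdkn2 and other G1 regulators, Cdkn2b, Cdkn2c and Ccnd2 were the further members whose late libraries at P20 both lay above the early ones with a mean log2 difference of at least 1. Of all genes tested, 3.21% met this rule. Cdkn2b, the neighbour that encodes p15INK4b, was at 4.87 and 5.10 RPKM in the E11.5 and E13.5 lines at P20 and at 12.8 and 9.50 RPKM in the E16.5 and P1 lines, which did not pass the test (difference 1.01 ± 0.21, adjusted p = 0.122). Of 26 cell cycle genes 0 were separated at P20, and their median difference was -0.21 against 0.02 for all genes.

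Saa3 was at 0.41 and 1.02 RPKM in the E11.5 line at P20 and P80 and at 0.24 and 1.94 RPKM in the E13.5 line. It was at 17.1 and 13.1 RPKM in the E16.5 line, and at 37.0 RPKM at P20 and 2.36 RPKM at P80 in the P1 line. The late and early libraries did not overlap, although the P1 line at P80 was close to the highest early library. The difference was 4.31 ± 0.39 at P20 (limma, adjusted p = 0.0404). Over both passages it was 2.90 ± 0.21 (adjusted p = 0.0609), and 3.78 ± 0.42 without the P1 line at P80 (adjusted p = 0.0173). In the primary cells Saa3 stayed at or below 0.58 RPKM, and the difference in the lines exceeded the one in primary cells by 2.63 ± 0.26 (adjusted p = 0.0066). Saa3 belongs to a family of similar genes, and reads that it may share with its relatives were not assessed. Of 7 tested acute phase genes, Saa3 was called higher at P20, as were 0.412% of all genes. Lcn2, C3 and Lbp also had higher late libraries at P20 without overlap, by a log2 of at least 1, as did 3.21% of all genes. Cebpb and Cebpd, encoding transcription factors of the acute phase response, had differences of 0.08 and -0.26. C3, the central complement component, was at 6.36 and 5.19 RPKM in the E16.5 and P1 lines at P20 and at 0.89 and 1.87 RPKM in the E11.5 and E13.5 lines. In late against early primary cells 4 of the 7 were called higher, where 11.9% of all genes tested were.

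Pax2 was at 2.57 and 2.39 RPKM in the E11.5 line at P20 and P80 and at 15.1 and 0.24 RPKM in the E13.5 line. It was at 69.7 and 59.7 RPKM in the E16.5 line, and at 73.3 RPKM at P20 and 3.77 RPKM at P80 in the P1 line. The E13.5 line at P20 lay above the P1 line at P80, so the 4 late and 4 early libraries overlapped. At P20 they did not, with a difference of 3.26 ± 0.71 that did not pass the test over all genes (limma, adjusted p = 0.131) and passed without the small RNA symbols (adjusted p = 0.0405). Over both passages the difference was 3.15 ± 0.61 (adjusted p = 0.346), and 4.14 ± 0.16 without the P1 line at P80 (adjusted p = 0.00449). In primary NPCs the late-early difference was -0.06 ± 0.26, and the difference in the lines exceeded it by 3.21 ± 0.66 (adjusted p = 0.0463).

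**Figure D2:**
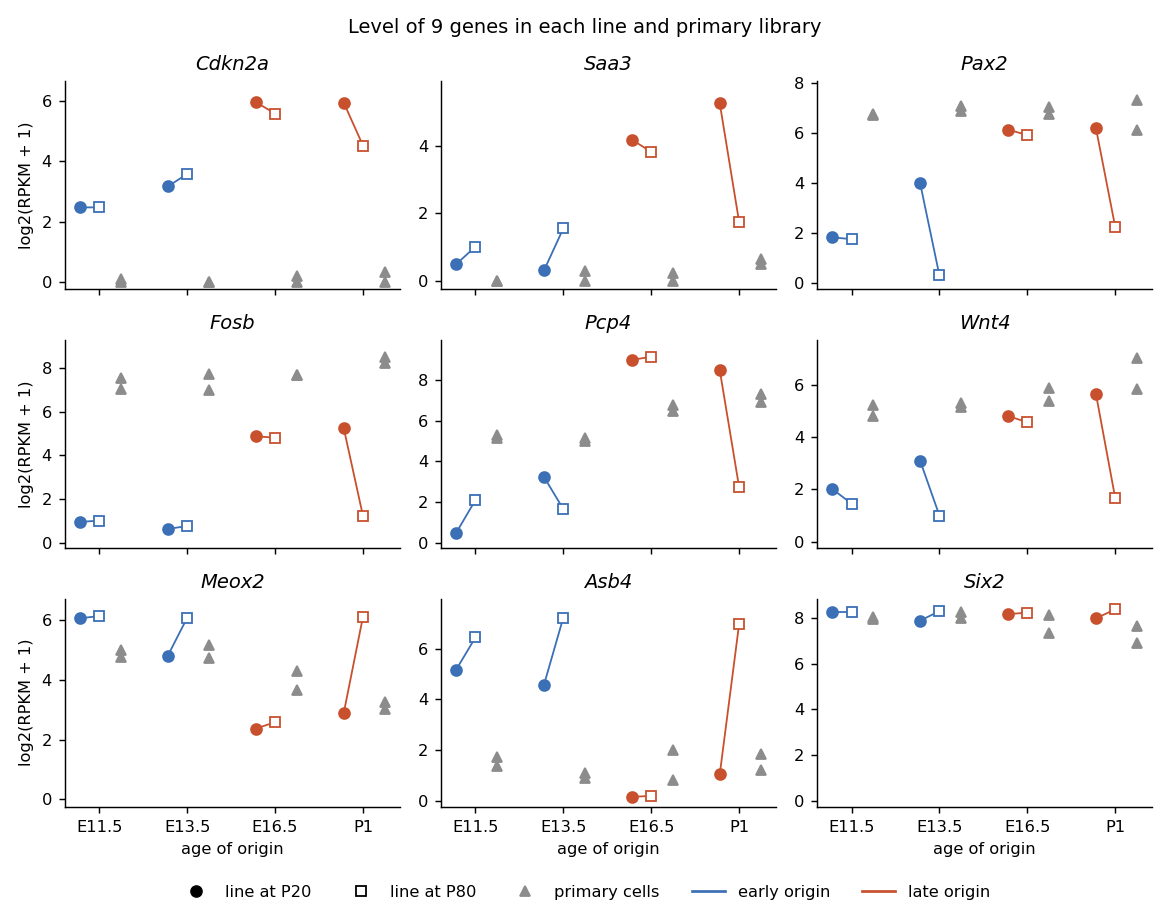
Level of 9 genes on the log2(RPKM + 1) scale in the lines at P20 (circles) and P80 (open squares), joined within a line, and in the 2 primary libraries of each age (grey triangles), by age of origin. The late-origin libraries stand apart from the early ones at P20 for all genes but Six2. At P80 the P1 line lies above the mean of the early lines by 1.49 for Cdkn2a, 1.22 for Pax2, 0.86 for Pcp4 and 0.46 for Saa3. The E16.5 line does so by 2.55, 4.89, 7.24 and 2.53.

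A gene was described as separated when all late libraries lay above or below all early libraries and the log2 difference was at least 1. Over the 8 libraries 31 genes were separated upward (0.256%) and 14 downward (0.115%), and at P20 alone 389 upward (3.21%) and 282 downward (2.33%). The P20 shares are those to set beside the separated counts of each list below. The BMP, Hox, fibrillar matrix, imprinted and Lin28 lists described below gave 0 calls at P20 over all genes in limma. At an unadjusted p under 0.05, which 11.6% of all genes reached upward and 8.65% downward, the 14 BMP targets held 7 members upward and 1 downward and the 34 Hox genes 9 and 5. The 15 fibrillar matrix genes held 2 and 8, the 23 imprinted genes 1 and 12, and the 13 genes of the Lin28 axis 0 and 6. The 5 downward Hox genes and the 2 upward matrix genes are near the share of all genes. Without the small RNA symbols the 5 lists gave 4, 6, 1, 0 and 0 calls upward and 1, 1, 4, 3 and 1 downward. The named genes follow a rule that ranks separated or called genes by their difference.

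Immediate-early genes, transcription factors and feedback regulators switched on within minutes of a stimulus, lay on the higher side. Of 16 tested, 8 were separated upward at P20 and 0 downward, with a median difference of 1.00 against 0.02 for all genes. Fosb, an AP-1 subunit, was at 0.93 and 0.55 RPKM in the E11.5 and E13.5 lines at P20 and at 28.2 and 37.2 RPKM in the E16.5 and P1 lines. At P80 Fosb was at 1.02 and 0.70 RPKM in the E11.5 and E13.5 lines, 27.0 RPKM in the E16.5 line and 1.33 RPKM in the P1 line. The P20 difference was 4.27 ± 0.23 (limma, adjusted p = 0.0126). Fosb passed the filter on low values, an RPKM of 1 in 2 or more line libraries, only through the late libraries. Its call is therefore no support for a difference. Fosb was the member called over all genes, and without the small RNA symbols 7 passed, namely Fosb, Fos, Jun, Btg2, Dusp1, Nr4a1 and Jund. Fos, the partner of Jun in AP-1, was at 27.8 and 6.62 RPKM in the early lines at P20 and at 166 and 157 RPKM in the late ones (difference 3.45 ± 0.63, adjusted p = 0.103). Egr1, a zinc finger factor of the same response, was at 47.5 and 10.1 RPKM against 141 and 112 RPKM (2.45 ± 0.70, adjusted p = 0.174). In late against early primary NPCs 10 of the 16 were higher, against 11.9% of all genes, and 0 lower, from levels far above those of the lines. Fosb, for example, was at 127 to 359 RPKM in primary cells, and Fos at 415 to 1396 RPKM.

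The upstream 250 bases of Fosb and Fos, from the immediate-early group, and of Saa3 are shown as the promoters of genes that differed together at P20. They come from RefSeq promoters on GRCm38.p6, where all 3 symbols matched, on the minus strand at chr7:19310046-19310295 (Fosb), the plus strand at chr12:85473640-85473889 (Fos) and the minus strand at chr7:46715677-46715926 (Saa3). Capitals mark the motifs found on either strand, namely TGACG, the core of the cAMP response element, in Fosb and Fos, and the TATA box letters TATAAA in Fos. In Saa3 they mark GCAAT, part of the C/EBP site, once on each strand.
Fosb: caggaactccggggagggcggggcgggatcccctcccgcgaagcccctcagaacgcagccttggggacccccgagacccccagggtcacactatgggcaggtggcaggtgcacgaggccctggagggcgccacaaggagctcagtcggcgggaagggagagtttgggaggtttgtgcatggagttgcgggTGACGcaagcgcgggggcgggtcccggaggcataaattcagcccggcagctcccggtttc
Fos: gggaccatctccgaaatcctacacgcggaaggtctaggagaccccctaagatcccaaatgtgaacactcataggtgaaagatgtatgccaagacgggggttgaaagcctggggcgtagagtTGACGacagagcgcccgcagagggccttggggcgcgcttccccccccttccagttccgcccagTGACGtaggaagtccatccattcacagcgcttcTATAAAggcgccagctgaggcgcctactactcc
Saa3: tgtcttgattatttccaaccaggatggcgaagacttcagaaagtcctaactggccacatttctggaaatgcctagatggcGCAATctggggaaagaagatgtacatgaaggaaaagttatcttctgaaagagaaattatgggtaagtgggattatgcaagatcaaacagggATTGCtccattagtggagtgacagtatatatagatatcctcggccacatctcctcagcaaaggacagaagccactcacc
Among 32851 promoter windows of this length 17.8% held TGACG on either strand. The TATA box letters were in 12.4% and GCAAT in 23.1% of them, so such matches are common. The CArG box bound by serum response factor was found in none of the 3 windows and in 1.47% of all windows. Sites farther upstream than these 250 bases were not searched, so absence from a window does not mean absence from the gene. The AP-1 motif TGANTCA was also absent from the 3 and present in 6.75% of all windows. The full cAMP response element TGACGTCA was absent from the 3 and present in 1.55%, and the STAT motif TTCNNNGAA was absent and present in 7.02%. The motifs marked in capitals were chosen after the sequences were seen.

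Cap mesenchyme genes did not move as 1 group. Of 29 tested, 8 were separated upward at P20 and 2 downward, with a median difference of 0.43. Pcp4, which encodes a calmodulin regulator found in the cap mesenchyme, was at 0.41 and 8.46 RPKM in the E11.5 and E13.5 lines at P20 and at 503 and 353 RPKM in the E16.5 and P1 lines. At P80 Pcp4 was at 3.31 and 2.17 RPKM in the early lines, 560 RPKM in the E16.5 line and 5.70 RPKM in the P1 line. The P20 difference of 6.86 ± 0.90 did not pass over all genes (adjusted p = 0.0658) and passed without the small RNA symbols. Traf1, an adaptor of TNF receptors, was at 0.23 and 1.78 RPKM against 27.6 and 21.3 RPKM at P20 (3.77 ± 0.43, adjusted p = 0.0553, and 0.00895 without the small RNA symbols). Fgf20, a growth factor that maintains NPCs, was listed at 0 and at 0.06 RPKM in the early lines at P20 and was at 1.84 and 1.93 RPKM in the late lines. At P80 it was at 3.15 RPKM in the E16.5 line and listed at 0 in the other 3. Fgf20 passed the filter on low values only through the late libraries, so its call at P20 (adjusted p = 0.0497) is no support for a difference, and it was called in 2 of 13 alternatives. Itga8, the integrin chain through which NPCs signal to the ureteric bud, was at 8.89 and 6.72 RPKM against 29.6 and 24.9 RPKM (1.69 ± 0.20, adjusted p = 0.0554, and 0.0119 without the small RNA symbols). Cited1, a transcriptional coregulator of the least committed NPCs, was at 69.8 and 80.5 RPKM against 350 and 161 RPKM at P20 (1.65 ± 0.38, adjusted p = 0.139), and in primary cells it was higher at the late ages by 2.22 ± 0.22 (adjusted p = 0.00613). Six2 had a difference of 0.01 ± 0.18 at P20, whose sign over both passages depended on the scaling. Meox2, a homeobox gene, went the other way, at 65.6 and 27.0 RPKM in the early lines and 4.16 and 6.35 RPKM in the late lines at P20 (-2.81 ± 0.45, adjusted p = 0.0887). Robo2, the receptor of SLIT proteins, was at 50.2 and 33.1 RPKM against 19.4 and 15.3 RPKM. Meox2 was also lower in late primary cells (-1.36, adjusted p = 0.011).

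Genes of early nephron differentiation, the step after the progenitor state, were on the higher side. Of 13 tested, 6 were separated upward at P20 and 0 downward, with a median of 0.95. Wnt4, the ligand that starts epithelial conversion, was at 3.05 and 7.59 RPKM in the E11.5 and E13.5 lines at P20 and at 27.0 and 49.7 RPKM in the E16.5 and P1 lines (2.68 ± 0.47, adjusted p = 0.0967). At P80 Wnt4 was at 1.74 and 1.00 RPKM in the early lines, 22.8 RPKM in the E16.5 line and 2.18 RPKM in the P1 line. Cxcr4, a chemokine receptor, passed the test, at 21.3 and 20.5 RPKM against 101 and 79.2 RPKM (2.05 ± 0.16, adjusted p = 0.0383). Without the small RNA symbols 5 of the 13 passed, namely Wnt4, Cxcr4, Jag1, Cdh4 and Pax8. Epcam, an epithelial adhesion protein, was at 14.2 and 22.1 RPKM in the early lines at P20 and at 53.5 and 47.7 RPKM in the late lines. Of 11 genes of cadherins and epithelium 3 were separated upward at P20, against 3.21% of all genes. The summed level of 15 ureteric bud markers was 33.1 and 50.0 RPKM in the early and 48.2 and 51.6 RPKM in the late lines at P20; the part of other epithelial cells in these differences was not tested.

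BMP targets lay on the higher side as well, with 7 of 14 separated upward and 1 downward at P20 and a median of 0.95. Id4, an inhibitor of basic helix-loop-helix factors, was at 0.40 and 1.19 RPKM in the early lines at P20 and 8.47 and 9.25 RPKM in the late lines (2.49 ± 0.27, adjusted p = 0.0504). The related Id1 was at 217 and 159 RPKM against 425 and 494 RPKM, and Id2 at 163 and 184 RPKM against 359 and 397 RPKM. Without the small RNA symbols Id1, Id2, Id3 and Id4 passed upward and the ligand gene Bmp4 downward. Bmp4 was at 38.8 and 38.2 RPKM in the early and 13.7 and 17.1 RPKM in the late lines at P20. In primary cells 3 of the 14 were called higher at the late ages, where 11.9% of all genes were, and 0 lower.

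Further genes called higher at P20 came from several pathways. Dusp5, a phosphatase that inactivates ERK in the nucleus, was at 24.7 RPKM in both the E11.5 and the E13.5 line and at 111 and 102 RPKM in the E16.5 and P1 lines (2.06 ± 0.12, adjusted p = 0.0187). Cyr61, a secreted matrix protein induced by YAP, was at 21.2 and 10.5 RPKM against 139 and 170 RPKM (3.27 ± 0.34, adjusted p = 0.049). Of 10 YAP targets 3 were separated upward at P20, Cyr61, Ctgf and Ptpn14, against 3.21% of all genes. Klf4, a zinc finger factor downstream of LIF, was at 1.21 and 2.05 RPKM against 14.7 and 11.2 RPKM (2.42 ± 0.25, adjusted p = 0.049). Socs3, the inhibitor induced by the same pathway, went the other way at 106 and 135 RPKM against 59.0 and 54.1 RPKM (-1.07 ± 0.16, adjusted p = 0.0831). Defb25, a beta-defensin gene, was at 37.9 and 42.7 RPKM against 671 and 437 RPKM (3.72 ± 0.24, adjusted p = 0.0193). Cldn9, a tight junction claudin, was at 0.93 and 2.60 RPKM against 43.6 and 36.7 RPKM (3.96 ± 0.34, adjusted p = 0.0403). Lect1, Igsf5, Slco3a1, Tgm2 and Rnase12 were also called higher, with differences of 2.92, 2.49, 2.54, 2.49 and 3.50. Lect1 and Igsf5 passed the filter on low values only through the late libraries, so their calls are no support for a difference. Gpr64 was separated upward over the 8 libraries without being called at P20, at 0.82 to 1.86 RPKM in the early and 2.07 to 9.77 RPKM in the late libraries. The genes ranked for P80 showed the same layout. Khdrbs3, an RNA binding protein gene, was at 49.2 RPKM in the E16.5 line at P80 and 1.18 to 3.76 RPKM in the other 3. Irx4 was at 22.2 RPKM against 1.21 to 6.19 RPKM, and the stress cytokine gene Gdf15 at 33.3 RPKM against 1.23 to 5.60 RPKM.

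The Hox genes, transcription factors of positional identity, differed in both directions, and most of them were not separated. Of 34 tested, Hoxb4, Hoxb5, Hoxb6, Hoxb8 and Hoxb9 were separated upward at P20, and Hoxd12 and Hoxd13 downward. Without the small RNA symbols these 5 Hoxb genes and Hoxc10 were called higher and Hoxd12 lower. Whether the clusters differ was not tested. Hoxc10 was at 92.9 and 91.8 RPKM in the early and 171 and 149 RPKM in the late lines at P20. Hoxb5 was at 7.82 and 10.1 RPKM in the early and 30.1 and 25.9 RPKM in the late lines at P20 (1.55 ± 0.19, adjusted p = 0.0596). Hoxd12 was at 32.3 and 16.3 RPKM against 3.19 and 2.57 RPKM (-2.64 ± 0.35, adjusted p = 0.0659). The difference of Hoxb5 in the lines exceeded that in primary cells by 1.48 ± 0.29 (adjusted p = 0.042). Hoxd12 was lower in late primary cells too (-1.21, adjusted p = 0.0251). Emx2, another homeobox gene, was at 0.02 to 0.66 RPKM in the early and 1.29 to 2.72 RPKM in the late libraries, all 8 included. Emx2 passed the filter on low values only through the late libraries, so its separation is no support for a difference. In late primary cells it was 1.64 ± 0.29 higher (limma, adjusted p = 0.0181).

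Genes lower in the late lines at P20 included 7 calls outside the small RNA symbols. Asb4, which encodes an ankyrin repeat and SOCS box protein, was at 35.1 and 22.9 RPKM in the E11.5 and E13.5 lines at P20 and at 0.11 and 1.06 RPKM in the E16.5 and P1 lines (-4.28 ± 0.38, adjusted p = 0.0404). At P80 Asb4 was at 86.7 and 150 RPKM in the early lines, 0.14 RPKM in the E16.5 line and 126 RPKM in the P1 line. In primary cells it was at 0.75 to 2.99 RPKM. Fxyd1, a regulator of the sodium pump, was at 31.7 and 32.5 RPKM against 7.79 and 6.04 RPKM (-2.07 ± 0.18, adjusted p = 0.0403), and Slc40a1, the iron exporter ferroportin, at 23.8 and 29.1 RPKM against 7.01 and 7.67 RPKM (-1.71 ± 0.17, adjusted p = 0.049). Islr, Dact3 and Peg3os were called lower by -1.93, -1.30 and -1.90, and Peg3os is an antisense transcript whose reads cannot be told from those of Peg3 without strand. Car9, a carbonic anhydrase induced by hypoxia, was at 69.5 to 116 RPKM in the early and 19.6 to 33.8 RPKM in the late libraries, all 8 included (-1.57 ± 0.18, adjusted p = 0.307, and 0.0291 without the P1 line at P80). Cox7a1, Bcat1, C1qtnf7, Cpne7, Chrnb1, Eno2 and Guca1a were likewise separated downward over the 8 libraries, with differences between -1.91 and -1.02. Cpa1, a carboxypeptidase gene ranked for P80, was at 50.3 RPKM in the E11.5 line and 199 RPKM in the E13.5 line at that passage, against 2.91 RPKM in the E16.5 line and 37.6 RPKM in the P1 line. Gng11, a G protein subunit gene, was at 24.8 and 23.6 RPKM in the early lines at P80, 0.22 RPKM in the E16.5 line and 17.1 RPKM in the P1 line. Gng11 passed the filter on low values only through the early libraries, so its separation is no support for a difference.

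Several collagen and matrix genes were separated downward in the late lines at P20. Of 15 fibrillar matrix genes tested, 6 were separated downward at P20 (Col1a1, Col1a2, Col3a1, Dcn, Postn and Lox) and Tnc upward, while in primary cells 13 were called higher, against 11.9% of all genes, and 0 lower. The summed level of the list went the other way in the lines, at 880 and 1090 RPKM in the early and 1894 and 1399 RPKM in the late lines at P20. Most of that sum was Sparc, a collagen-binding glycoprotein gene, at 619 and 862 RPKM in the early and 1674 and 1203 RPKM in the late lines. Postn, a matrix protein gene, was at 20.5 and 8.13 RPKM in the early and 0.44 and 1.00 RPKM in the late lines at P20 (-3.04 ± 0.45, adjusted p = 0.0798). At P80 Postn was at 25.9 and 31.5 RPKM in the early lines, 0.72 RPKM in the E16.5 line and 11.3 RPKM in the P1 line. Col3a1 was at 2.36 to 23.8 RPKM in the early and 1.24 to 1.98 RPKM in the late libraries, all 8 included. Dcn, the proteoglycan decorin, was at 7.08 to 12.52 RPKM in the early and 0.86 to 4.97 RPKM in the late libraries. The late-early difference in the lines fell below that in primary cells by -5.06 ± 0.80 for Postn (limma, adjusted p = 0.025), -4.97 ± 1.03 for Col3a1 (adjusted p = 0.0464) and -4.73 ± 0.68 for Dcn (adjusted p = 0.0205). Postn passed the filter on low values only through the early libraries, so its call is no support for a difference. These genes also mark renal stroma. Its 18 markers summed to 336 to 393 RPKM in the early and 483 to 1140 RPKM in the late primary libraries. The summed level of 18 stromal markers was 206 and 203 RPKM in the early and 145 and 129 RPKM in the late lines at P20, and Foxd1, which defines stromal progenitors, was at most 0.97 RPKM in any line. In these bulk samples fewer cells of a type and less RNA per cell cannot be told apart.

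Imprinted genes and the Lin28 axis were on the lower side. Of 23 imprinted genes 7 were separated downward at P20 and 0 upward, with a median of -0.82. Meg3, a noncoding RNA of the Dlk1-Dio3 region, was at 45.2 and 29.9 RPKM in the early and 9.25 and 7.68 RPKM in the late lines at P20 (-2.00 ± 0.24, adjusted p = 0.0584), and at 0.16 RPKM in the E13.5 line at P80. Igf2, the growth factor gene, was at 313 and 436 RPKM in the E11.5 and E13.5 lines, 43.1 RPKM in the E16.5 line and 348 RPKM in the P1 line at P20, so the E16.5 line alone was low. Of 13 genes around Lin28 and its target microRNA let-7, a switch known for timing development, Lin28a, Hmga2, Igf2bp2 and Igf2bp3 were separated downward and 0 upward. Hmga2, a chromatin protein gene targeted by let-7, was at 251 and 172 RPKM in the early lines at P20 and at 33.8 and 104 RPKM in the late ones (-1.79 ± 0.55, adjusted p = 0.19). Lin28a was at 27.9 and 49.1 RPKM in the early lines, 1.07 RPKM in the E16.5 line and 19.2 RPKM in the P1 line. In late against early primary cells 10 of the 23 imprinted genes and 9 of the 13 Lin28 axis genes were called lower, against 11.4% of all genes, and 0 higher.

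**Figure D3:**
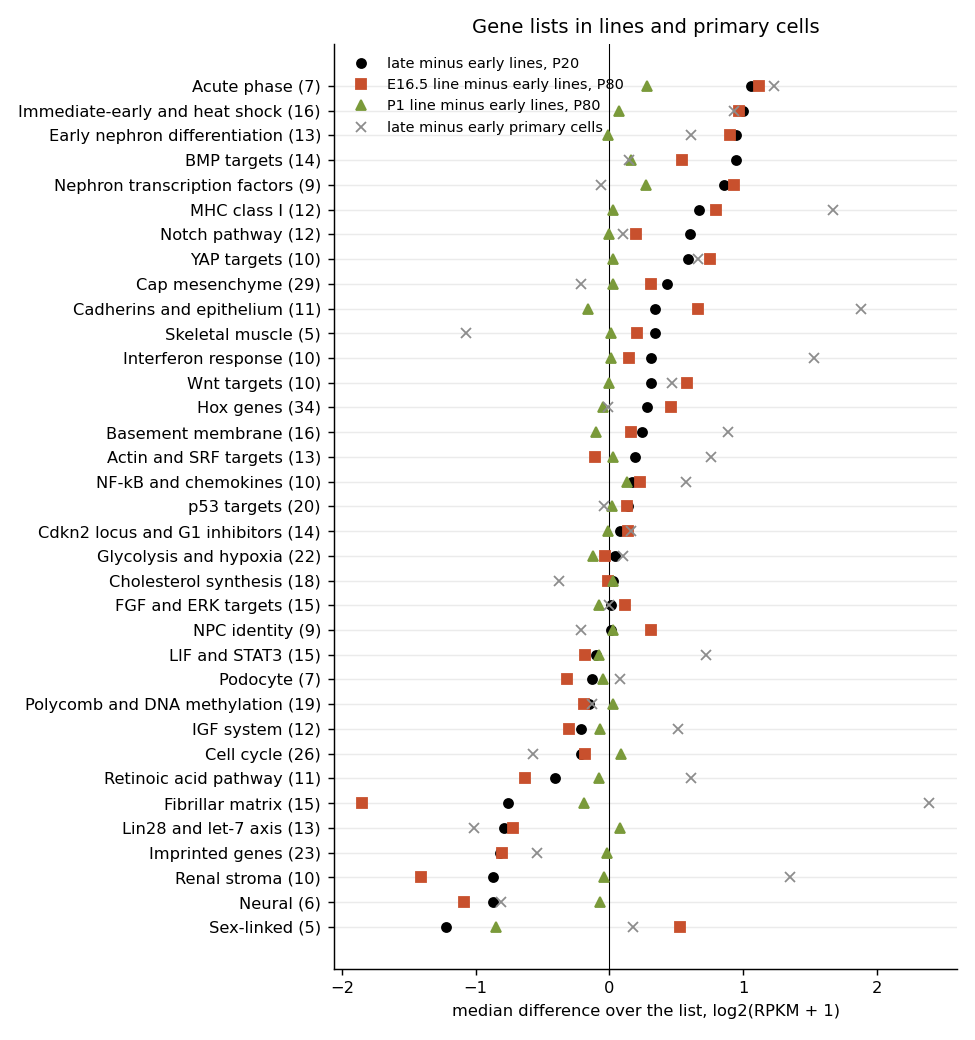
Median log2(RPKM + 1) difference of each gene list with 5 or more genes tested (number in parentheses), for late minus early lines at P20, the E16.5 line and the P1 line at P80 each minus the mean of the early lines at P80, and late minus early primary cells. The E16.5 line at P80 stays near the P20 values for most lists, and the medians of the P1 line at P80 lie between -0.19 and 0.28 except for the sex-linked genes at -0.85.

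The 2 late lines parted at P80. Of the 50 genes called higher at P20, the E16.5 line at P80 lay above both early lines at P80, and above their mean by a log2 of at least 1, for 44 (88.0%), while 4.43% of all genes did. The P1 line at P80 did so for 2 of the 50 (4.0%), against 0.346% of all genes; these were Cdkn2a and a microRNA symbol. Of the 17 genes called lower, the E16.5 line at P80 lay below by the same rule for 10 (58.8%, against 3.87% of all genes) and the P1 line for 0 (0.396%). Outside the small RNA symbols these were 44 of 49 higher and 7 of 7 lower genes in the E16.5 line, and 1 and 0 in the P1 line. The median difference of the 50 genes from the early lines at P80 was 2.23 in the E16.5 line and 0.06 in the P1 line. Among the 265 and 109 genes called at P20 without the small RNA symbols, 185 (69.8%) and 76 (69.7%) met this rule in the E16.5 line and 3 (1.1%) and 3 (2.8%) in the P1 line. These counts share the line, and in part the culture, with the P20 libraries that chose the genes. Among the 50, Fosb, Lect1, Igsf5 and Fgf20 passed the filter on low values only through late libraries, the E16.5 line at P80 among them. Their part of the counts is no support for a difference that lasts to P80. With 1 library per line and passage, the difference between the 2 late lines at P80 has no replicate check.

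**Figure D4:**
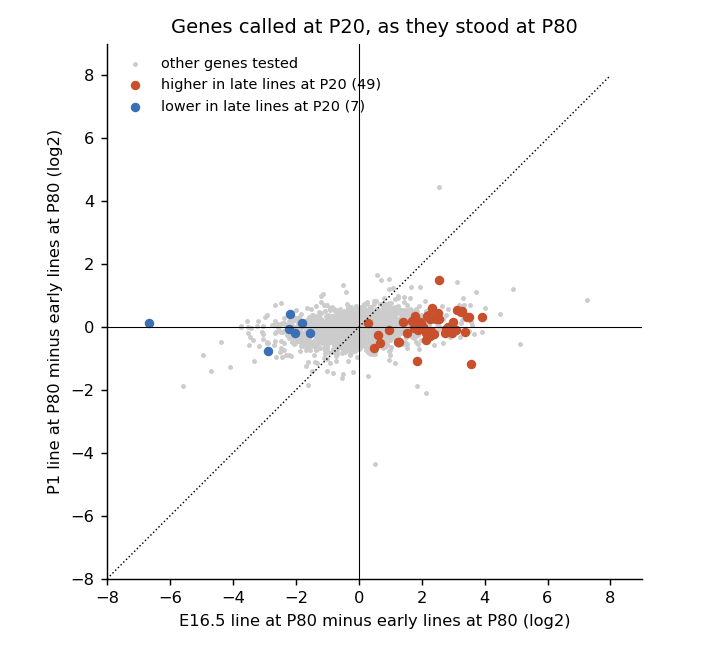
Each gene's log2(RPKM + 1) difference from the mean of the early lines at P80, in the E16.5 line (horizontal) and in the P1 line (vertical), with the 49 genes called higher and 7 called lower at P20 in colour, small RNA symbols left out and the line of equality dotted. The coloured genes spread along the horizontal axis, with medians of 2.25 and -2.18 in the E16.5 line and 0.04 and -0.05 in the P1 line.

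The genes called in the lines at P20 were then followed in primary cells of the same ages. Macrophage and tubule sums reached higher levels in late than in early primary libraries, as given above, and their part in these differences was not tested. Late against early primary NPCs differed for 1446 genes upward (11.9%) and 1380 downward (11.4%), and quantile scaling moved that split to 890 upward and 1464 downward with a shift of -0.12 in the median of all genes. Of the 50 genes called higher in late lines at P20, 14 were higher in late primary cells (28.0%) and 4 lower, and of the 17 called lower 0 were lower and 2 higher. Among the 265 genes called higher without the small RNA symbols, 99 (37.4%) were higher in late primary cells and 16 (6.0%) lower. Among the 109 called lower, 6 (5.5%) were lower and 28 (25.7%) higher. The late-early difference itself differed between lines and primary cells for 103 genes upward (0.849%) and 192 downward (1.58%). The spread in this test was shared between the line averages and the primary libraries. These calls depended on single lines, with 4 in all without the E11.5 line, 23 without the E13.5 line and 25 without the E16.5 line. The 16 named genes among them kept their sign in each case, and 0, 3 and 3 of them were still called. Dusp5 was at 9.77 to 16.4 RPKM in late and 20.4 to 39.3 RPKM in early primary cells, opposite to the lines, and its differences parted by 2.76 ± 0.44 (limma, adjusted p = 0.0259). Slco3a1, an organic anion transporter gene, was also lower in late primary cells and higher in late lines, with differences that parted by 2.71 ± 0.26 (adjusted p = 0.00654). Gpr64, Tgm2 and Rnase12 were higher in both, and their differences between lines and primary cells did not pass the test (-0.18 ± 0.31, -0.69 ± 0.63 and 0.81 ± 0.60).

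**Figure D5:**
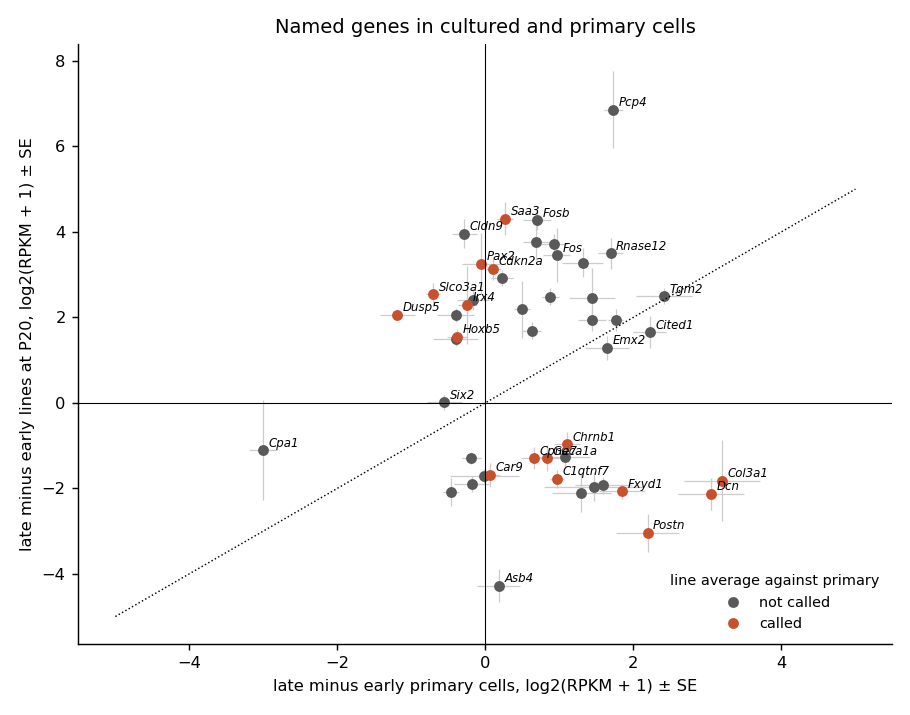
Late minus early difference of the named genes in primary cells (horizontal) and in lines at P20 (vertical), log2(RPKM + 1) with SE bars, with genes whose line-average and primary differences parted at an adjusted p under 0.05 in red and the line of equality dotted. Col3a1, Dcn and Postn lie at the lower right, higher in late primary cells and lower in late lines, and Pcp4 lies farthest up at 6.86.

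The P20 calls rest on 4 libraries. With each line left out in turn the number called ranged from 19 to 42, and of the 21 named genes called at P20, between 0 and 4 were called with any single line left out, all with the same direction. Over all alternatives the adjusted p in limma ranged from 0.000517 to 0.191 for Cdkn2a and from 0.000491 to 0.249 for Saa3. For Fosb it ranged from 0.000263 to 0.176. Among the 21, Fosb, Lect1, Igsf5 and Fgf20 passed the filter on low values only through the late libraries. Their calls and ranges are therefore no support for a difference.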

How the data were processed

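All values are RPKM per gene symbol, from a table that the authors deposited; STAR, Cufflinks and mm9 are named in the submitters' processing notes, without versions. RPKM corrects for length and for mapped reads only. Of 23947 table lines, 27 with symbols turned into dates and 2 with shifted values were left out. The shift occurs in 18 libraries, all P80 lines among them, and in none of the P20 lines. Depth is not given. The spacing of low values put it at roughly 6.6 to 24.7 M reads in the lines and 11.7 to 24.1 M reads in primary cells. At P20 the estimate was 20.3 and 11.2 M reads for the E11.5 and E13.5 lines. It was lower for the E16.5 and P1 lines, at 10.9 and 6.6 M reads. The part of depth in the P20 differences was not tested. Only 43.4 to 53.8% of low values lay within 10% of a whole read, so no count test was run.

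The 12129 genes that reached an RPKM of 1 in 2 or more of the 8 line libraries were tested on log2(RPKM + 1) with limma 3.58.1 in R 4.3.3, two-sided, with a variance trend and Benjamini-Hochberg adjustment over all of them. An adjusted p under 0.05 was called. The procedure was checked on simulated data. The labels do not say that libraries came from separate cultures or animals, so the p-values describe the spread among these libraries only, part of which may be technical. P20 and P80 of 1 line were averaged and the line was the unit. For lines against primary cells, the 4 line averages and the 8 primary libraries were fitted together with 1 spread per gene. Those p-values therefore rest in part on the spread between primary libraries of the same age, not only on that between lines.

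Members, lists and tests were chosen with earlier results of these data known. Named genes are Cdkn2a, Saa3, Pax2, Six2 and Cited1, up to 12 separated genes per direction with the largest difference and a mean RPKM of at least 5 (predicted, clone and small RNA symbols passed over), up to 4 more per direction for P20 and P80, and up to 4 separated or called members per list. Some results are not reported here. Other genes were chosen for display after their values were seen. Alternatives were other pseudocounts, filters and scalings, libraries left out, a shared spread and the small RNA symbols left out. Coordinates come from the mm9 annotation (GENCODE M1) and promoters from RefSeq.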

Additional observations from a re-analysis of the deposited data

Results flagged for a closer look

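In groups of 4 libraries a gap at 1 end that is large against the range was looked for in the named genes. Chance gives such a gap in about 1 group in 20 of normally distributed values. RPKM of genes named by their separation do not meet that condition, so the counts cannot be read against this rate. The P1 line at P80 was the outlying late-origin library for 12 of the 48 named genes. It was the lowest for Lect1 (0.578 RPKM), Fos (41.9 RPKM), Rnase12 (2.78 RPKM) and Khdrbs3 (3.76 RPKM). It was the highest for Peg3os (15.3 RPKM), Dact3 (38.9 RPKM), Asb4 (126 RPKM), Fxyd1 (42.6 RPKM), Islr (10.1 RPKM), Slc40a1 (63.1 RPKM), Postn (11.3 RPKM) and Gng11 (17.1 RPKM). Among the early-origin libraries, the E13.5 line at P20 was the highest for Pax2 (15.1 RPKM), Khdrbs3 (19.1 RPKM), Irx4 (12.7 RPKM) and Fgf20 (0.0619 RPKM) and the lowest for Six2 (233 RPKM), and the E13.5 line at P80 was the highest for Cited1 (194 RPKM).

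The late-early difference in the lines parted from that in primary cells, at an adjusted p under 0.05 in limma, for 16 of the named genes, of which 0 were called without the E11.5 line, 3 without the E13.5 line, 3 without the E16.5 line and 15 without the P1 line. The line difference was the larger by 2.47 for Cdkn2a, 2.63 for Saa3, 3.21 for Pax2, 2.71 for Slco3a1, 2.76 for Dusp5, 2.54 for Irx4 and 1.48 for Hoxb5 (log2). It was the smaller, at -4.97 for Col3a1, -4.73 for Dcn, -1.64 for Car9, -2.36 for C1qtnf7, -1.78 for Cpne7, -2.20 for Chrnb1, -1.86 for Guca1a, -3.45 for Fxyd1 and -5.06 for Postn. Of these, Postn passed the filter on low values only through the early libraries. The spread in this test was shared between the line averages and the primary libraries.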

How the results depend on the processing

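The late-early calls depended on the libraries and on the treatment of small RNA symbols. Over both passages the 12 calls became 5 with a pseudocount of 0.1, 6 with a minimum RPKM of 5, and 0 without a filter (limma, 2090 genes at an unadjusted p under 0.05), without small RNA symbols (1902) and with all 8 libraries fitted as independent (2349) or with a within-line correlation of -0.033 (2464). They became 1174 without the P1 line at P80, and 0 to 640 with single lines left out, 0 without the E11.5 line (330 at an unadjusted p under 0.05) or the E13.5 line (884) and 640 without the P1 line. At P20 the 67 calls became 24 with a pseudocount of 0.1, 1 without a filter, 36 with quantile scaling, 34 with median-ratio scaling, 475 with the spread shared with primary cells, 374 without small RNA symbols, and 19 to 42 with single lines left out (24 without E11.5, 42 without E13.5, 19 without E16.5, 28 without P1). At P80 the 13 calls became 8 with a pseudocount of 5, 1 without a filter, 6 with the shared spread, 0 without small RNA symbols (184 at an unadjusted p under 0.05) and 0 to 319 with single lines left out, 319 without the P1 line. The change with passage gave 0 to 63 calls with single lines left out, 63 without the E16.5 line and 12 without the P1 line. The separated genes, 45 in all, became 95 with a pseudocount of 0.1, 650 without the P1 line at P80 and 49 to 768 with single lines left out. The line-minus-primary calls went from 295 to 163 with quantile scaling, to 1563 without the P1 line at P80 and to between 4 and 348 with single lines left out (4 without E11.5, 23 without E13.5, 25 without E16.5). The primary contrast gave 92 to 5387 calls with single libraries left out, and 2694 against 2826 with a replicate block; deviations of same-numbered libraries correlated between -0.147 and 0.25, so the numbers were taken only as names. Among the named genes the sign reversed for Six2 alone, at -0.05 with quantile scaling, -0.01 with median-ratio scaling, -0.07 without the E13.5 line, -0.09 with GC and length trends removed and -0.08 without the P1 line at P80. The cause of these changes was not tested. Genes under an RPKM of 1 rest on few reads in the shallower libraries.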

Other observations

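Chromosome 18 stood apart in the E13.5 line at P80, where the median deviation of its 203 genes with a mean RPKM of at least 5 from their medians over the 8 line libraries was 0.24 on the log2 scale, while the medians of the other chromosomes in that library lay between -0.04 and 0.02. The same library had Meg3 at 0.16 RPKM, Rian at 0.17 RPKM and the Y-linked Eif2s3y at 0.03 RPKM, against 29.9, 6.85 and 13.9 RPKM in the E13.5 line at P20.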
